A study of Mus musculus with 6 samples.

Results

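Focal adhesions are the protein assemblies through which integrins, the receptors that grip the extracellular matrix, are coupled to the actin cytoskeleton. The 29 genes described here encode their core parts and were chosen by name from the 48820 gene identifiers of the count table. Each of the 29 symbols matched a single identifier through GENCODE mouse release M21. They were read in 4 layers, from the membrane inwards: 10 integrin-proximal genes, 5 signalling genes, 3 force transduction genes and 11 actin-linked genes.

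As background, talins and kindlins bind the tails of integrin beta subunits and switch the receptors to their active state, and the complex of integrin-linked kinase, PINCH and parvin assembles beside them. Focal adhesion kinase, Src, p130Cas and paxillin pass the signal on. Talin stretches under load and recruits vinculin, while alpha-actinins, filamins, zyxin and VASP organise the actin filaments that pull on the site. Adhesion and actin tension act on YAP and TAZ, the coactivators that the kinases LATS1 and LATS2 restrain, and several cytoskeletal and adhesion genes have been described as targets of YAP or of the actin-responsive factor SRF.

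RNA was sequenced from spheroids, cells grown as rounded aggregates, of 4T1, a mouse line of triple-negative breast cancer. The wild-type (WT) group had 3 libraries from unmodified 4T1 spheroids, and the other group had 3 libraries from a 4T1 line labelled as a LATS1/2 double knockout (dKO), and both were kept in RPMI medium with serum and antibiotics. The labels give no other treatment, no time in culture and no number of clones behind the knockout. They call the libraries biological replicates without naming separate cultures, and the p-values therefore speak only to differences among these libraries, which may be technical. The title of the study links LATS1/2 and integrins to forces made by tumour cells, which is the question that the focal adhesion genes bear on.

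Library totals ran from 38194478 to 49630116 estimated counts. Lats1 was at 158, 146 and 155 CPM (a gene's count scaled to its library's effective total) in WT 1, WT 2 and WT 3 and at 51.5, 53.0 and 48.0 CPM in dKO 1, dKO 2 and dKO 3. Lats2 went the other way, with 28.3, 30.5 and 22.7 CPM in WT and 86.7, 83.3 and 63.5 CPM in the libraries labelled dKO. Small edits of a gene are not visible in its count, so Lats2 gives no check of the genotype, and the directions that follow hold for the libraries labelled WT and dKO. WT 2 and dKO 3 stood apart from the others of their groups over all genes, and over the 29 genes the median absolute deviation from the WT mean was 0.17 on the log2 scale in WT 2 against 0.08 and 0.09 in WT 1 and WT 3. Of the mammary epithelial markers, Krt7, Krt8, Krt18, Krt19, Epcam and Cdh1 were all expressed, with summed levels of 4976 to 5483 CPM in WT and 4047 to 4862 CPM in dKO. Behind that sum, Epcam, Krt18 and Krt8 were lower in dKO, at -1.46, -0.66 and -0.55 on the log2 scale, and Krt19 and Cdh1 were higher, at 1.63 and 1.06, while Krt7 did not pass. The 8 fibroblast markers summed to 0.273 to 1.01 CPM in WT and 6.95 to 7.96 CPM in dKO, where Postn alone had a mean of 6.14 CPM. Postn and Col1a2, those with enough counts to be tested, were both called higher, at 3.78 and 4.43 on the log2 scale. Col1a2 had 0, 4 and 0 counts in WT and 28, 38 and 21 counts in dKO, and Lum and Thy1 were at 0 in every library. The 6 leukocyte markers summed to 0 to 0.149 CPM in WT and 0.559 to 3.27 CPM in dKO. Among them Itgam was at 0 in WT and had 13, 13 and 20 counts in dKO, Adgre1 had 81 and 103 counts in dKO 1 and dKO 2 and 0 in the other libraries, and Cd3e was at 0 throughout. The 5 endothelial markers summed to 0.304 to 1.36 CPM in WT and 0 to 1.03 CPM in dKO, and Pecam1, the only one tested, did not pass. The part of these markers in the results was not tested.

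Focal adhesion genes changed in both directions. Flnc, encoding the actin cross-linker filamin C, rose 8.34-fold, and Lims1, Tln2, Vcl, Bcar1 and Fermt2 rose by smaller amounts. Tns1, Tns2, Fermt1, Csrp1 and Src fell by more than 2-fold, and Actn1, Flna, Parvb, Pdlim7, Vasp, Pxn and Parva fell less. Of the 28 genes with enough counts to be tested, 6 rose, 12 fell and 10 did not pass (edgeR quasi-likelihood test, Benjamini-Hochberg adjusted p under 0.05 over all genes tested). The background is wide: calls were made for 57.3% of all 15807 tested genes, with 28.6% higher and 28.7% lower. The called share of the focal adhesion genes, 64.3%, is near that background. Their median absolute log2 fold change was 0.60, the same as over all tested genes, and their median signed change was -0.23 against -0.005. Of the 28, Flnc was called at least 2-fold higher and 5 were called at least 2-fold lower, where 26.1% of all tested genes were called with such a change in either direction. In RNA from whole spheroids, fewer cells expressing a gene and less RNA of it per cell cannot be told apart.

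**Figure D1:**
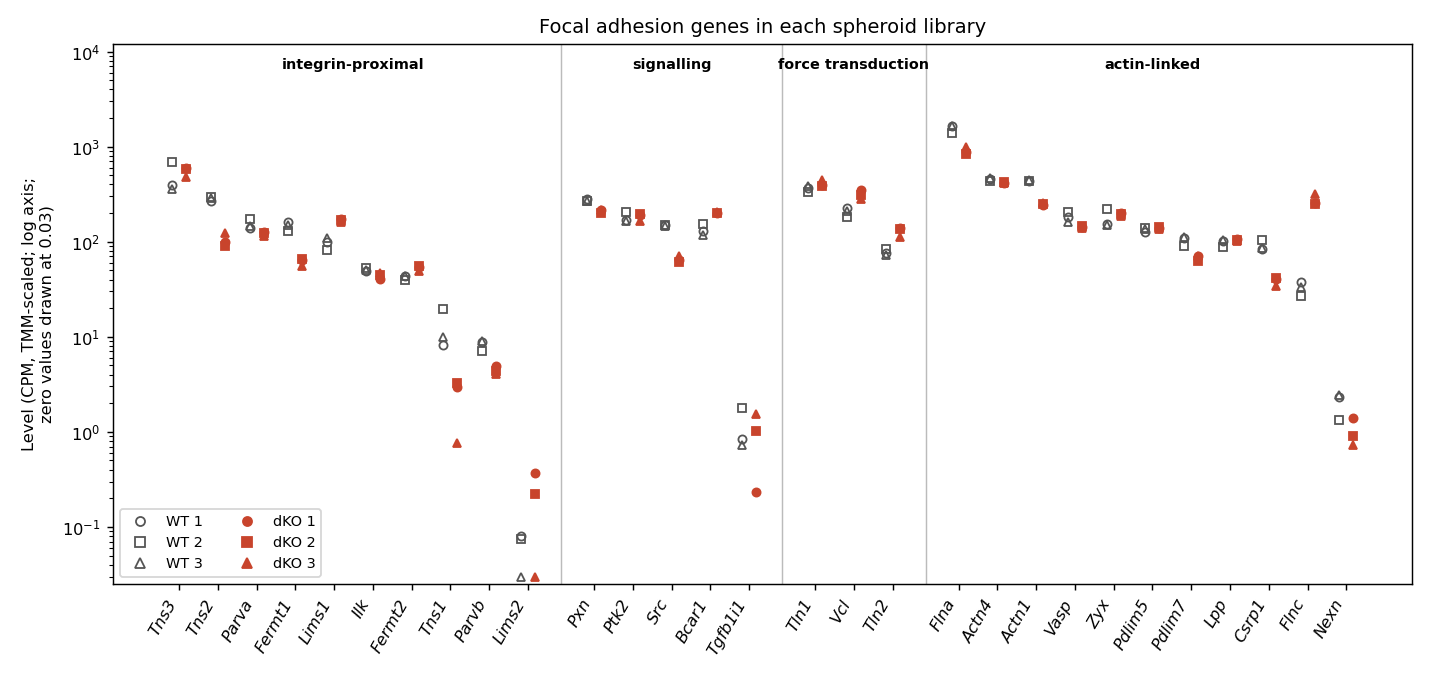
Level of each of the 29 focal adhesion genes in each library, in CPM on a log axis, grouped by layer and ordered by WT mean. Open grey symbols are the 3 WT libraries and filled red symbols the 3 dKO libraries; values of 0 are drawn at 0.03. Flnc stands out as the gene whose dKO libraries, at 249.7 to 314 CPM, lie far above WT, and Lims2 as the gene near 0 throughout.

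Read per kilobase of annotated exon (RPKM, computed from CPM and the union of a gene's exons), which allows levels of different genes to be set side by side, the most abundant component in both groups was Flna, at 166 ± 14.8 RPKM in WT and 95.8 ± 7.81 RPKM in dKO (SD, n = 3). It made up 16.6% to 20.1% of the summed level of the 29 genes in the WT libraries and 12.6% to 14.4% in the dKO libraries. Actn1, Actn4, Vasp and Tns2 followed in WT, and Actn4, Vasp, Tns3 and Actn1 in dKO. Summed over a layer, the actin-linked genes were at 513 ± 3.25 RPKM in WT and 382 ± 7.43 RPKM in dKO, and without Flna at 347 ± 14.0 and 287 ± 0.592 RPKM. The integrin-proximal genes summed to 185 ± 14.6 and 153 ± 5.93 RPKM and the signalling genes to 112 ± 6.48 and 101 ± 1.82 RPKM. Force transduction was the layer with the higher sum in dKO, at 87.0 ± 3.21 RPKM against 66.4 ± 4.77 RPKM in WT. In each of the 4 layers the WT and dKO libraries occupied separate ranges, as they did for 65.6% of all tested genes taken singly. These sums are descriptions and were not tested.

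**Figure D2:**
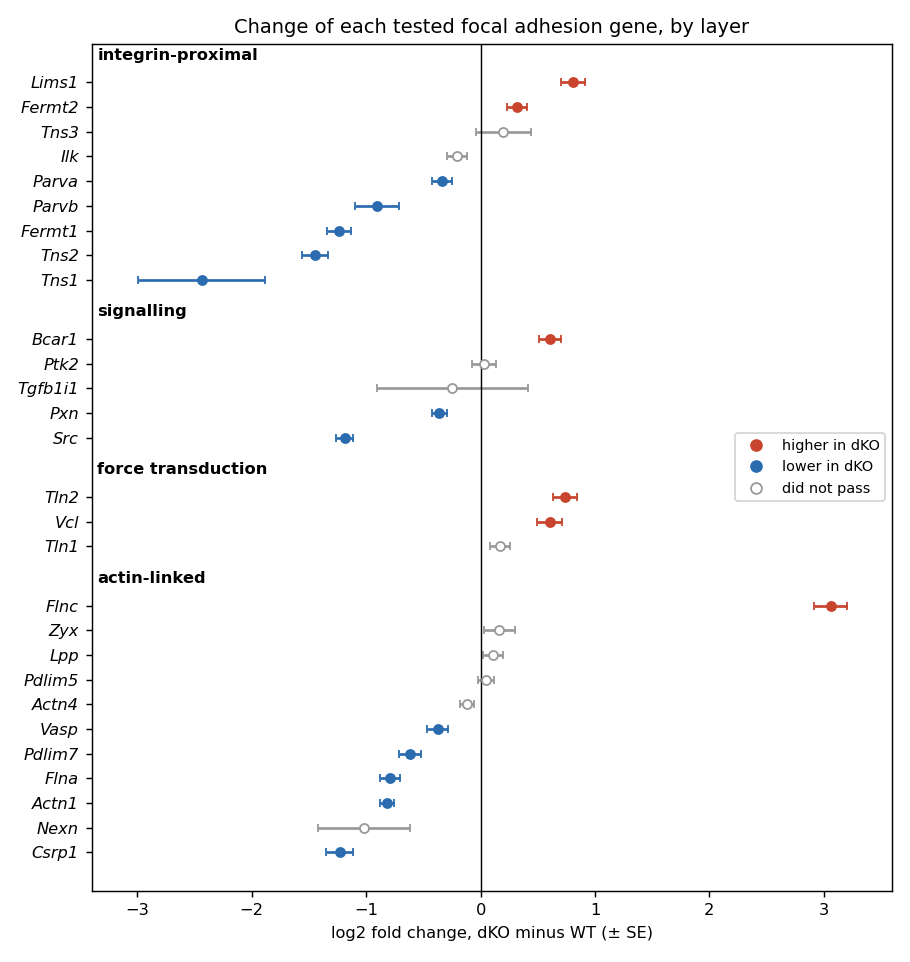
Fitted log2 fold change, dKO minus WT, of the 28 tested focal adhesion genes by layer, with bars for the approximate SE. Red points are genes higher in dKO, blue points genes lower in dKO and open grey points genes that did not pass. Values run from -2.44 for Tns1 to 3.06 for Flnc, and each layer except force transduction holds called genes on both sides of 0.

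In the integrin-proximal layer, 2 of 9 tested genes rose, 5 fell and 2 did not pass. That is 77.8% called, where 57.3% of all tested genes were, 28.6% higher and 28.7% lower. In a list of 9 this gap is a matter of few genes. The kindlins changed in opposite directions. Fermt1 (GRCm38 chromosome 2, 132904389 to 132945906), which encodes kindlin-1, the kindlin of epithelia, was at 161, 129 and 148 CPM in WT and at 63.8, 66.5 and 55.8 CPM in dKO. Every dKO library was below every WT library, and the fitted log2 fold change with its SE was -1.24 ± 0.10 (edgeR adjusted p = 1.31e-05). Fermt2 (chromosome 14, 45458795 to 45530118), encoding the more widely expressed kindlin-2, was at 43.4, 39.9 and 44.0 CPM in WT and 53.8, 55.4 and 49.1 CPM in dKO. Its rise was small, 0.31 ± 0.09 on the log2 scale (edgeR adjusted p = 0.0133), and it did not pass without dKO 2 (edgeR adjusted p = 0.0531).

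The complex of integrin-linked kinase, PINCH and parvin did not move as a unit. Lims1 (chromosome 10, 58323466 to 58424691), the gene of the LIM adaptor PINCH1, was at 98.8, 81.3 and 109 CPM in WT and at 175, 169.5 and 161 CPM in dKO. That is a clear separation of the groups, with a log2 difference of 0.81 ± 0.11 (edgeR adjusted p = 0.000194). Lims2, encoding PINCH2, had 4, 3 and 0 counts in WT and 14, 9 and 0 counts in dKO, and the filter on low counts left it out of the test. Ilk, which encodes the pseudokinase at the centre of the complex, was at 48.6, 52.9 and 50.4 CPM in WT and 40.6, 44.6 and 46.6 CPM in dKO. The ranges of Ilk did not touch, yet it did not pass (log2 fold change -0.20 ± 0.09, edgeR adjusted p = 0.0743), and it passed without dKO 3 (edgeR adjusted p = 0.046).

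Both parvin genes, whose products link integrin-linked kinase to actin, were lower. Parva was at 141, 172 and 146 CPM in WT and 126, 122 and 115 CPM in dKO, a log2 difference of -0.34 ± 0.09 (edgeR adjusted p = 0.00981). Parvb, the less abundant parvin, was at 8.86, 7.15 and 9.01 CPM in WT and 4.95, 4.37 and 4.03 CPM in dKO, a log2 difference of -0.91 ± 0.19 (edgeR adjusted p = 0.00323). No dKO library reached the WT range for either gene.

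Tensins bind integrin tails and actin and are found in mature and fibrillar adhesions. Tns2 (chromosome 15, 102100413 to 102116401) was at 269.95, 298 and 286 CPM in WT and 99.6, 90.4 and 123 CPM in dKO. It fell by 1.45 ± 0.11 on the log2 scale (edgeR adjusted p = 7.77e-06), one of the clearest separations in the layer. Tns1 (chromosome 1, 73910231 to 74124449) was much less abundant and more variable, at 8.15, 19.8 and 10.0 CPM in WT and 2.96, 3.29 and 0.768 CPM in dKO. WT 2 was the highest and dKO 3 the lowest library of Tns1. Its log2 fold change was -2.44 ± 0.55 (edgeR adjusted p = 0.00621), and -1.54 without WT 2 and dKO 3, a fold more than 1.5 times smaller. Tns3, the most abundant tensin by CPM, was at 398, 682 and 360.3 CPM in WT and 592, 587 and 473 CPM in dKO. WT 2 lay above every other library, and Tns3 did not pass (0.20 ± 0.24, edgeR adjusted p = 0.517). Without WT 2 it was called higher at 0.54 ± 0.11 (edgeR adjusted p = 0.00377), so its call rests on that library. Summed per exon length, the 3 tensins were at 95.9 ± 18.1 RPKM in WT and 68.5 ± 3.35 RPKM in dKO.

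Among the 5 signalling genes, Src fell, Pxn fell, Bcar1 rose, and Ptk2 and Tgfb1i1 did not pass. Src (chromosome 2, 157418444 to 157471862), the tyrosine kinase that phosphorylates focal adhesion kinase and p130Cas, was at 151, 150.4 and 146 CPM in WT and at 64.6, 61.4 and 70.4 CPM in dKO. Its WT libraries lay within a coefficient of variation of 1.98%, and the log2 fold change was -1.19 ± 0.08 (edgeR adjusted p = 2.51e-06). Bcar1 (chromosome 8, 111710474 to 111743809), the gene of p130Cas, a scaffold that is phosphorylated when stretched, moved the other way. It was at 129, 153 and 117 CPM in WT and 202, 198 and 207 CPM in dKO, a log2 difference of 0.60 ± 0.10 (edgeR adjusted p = 0.000678).

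Ptk2, which encodes focal adhesion kinase, had overlapping ranges. It was at 171, 208 and 166.5 CPM in WT and at 192, 197 and 167 CPM in dKO, with a log2 difference of 0.03 ± 0.10 (edgeR adjusted p = 0.827). WT 2 was its highest library and dKO 3 its lowest in dKO, and with both left out it was called higher by 0.21 ± 0.05 (edgeR adjusted p = 0.00265). These libraries were left out because they stood apart in these same data, which narrows the spread, so that call is a description and no independent test. Pxn, the gene of the adaptor paxillin, was at 279.5, 270.5 and 267 CPM in WT and 216, 202 and 218 CPM in dKO. The fall of Pxn was modest but even across libraries, -0.36 ± 0.06 on the log2 scale (edgeR adjusted p = 0.00117). Tgfb1i1, encoding the paxillin relative Hic-5, a mesenchymal adaptor, was low, at 0.831, 1.79 and 0.733 CPM in WT and 0.236, 1.03 and 1.54 CPM in dKO. Its libraries were mixed between groups (-0.25 ± 0.66, edgeR adjusted p = 0.774).

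Force transduction rests on talin and vinculin, and 2 of its 3 genes rose while the third did not pass. Of all tested genes 57.3% were called, 28.6% higher, and a layer of 3 genes is too small to set against those shares. Vcl (chromosome 14, 20929398 to 21033676), the vinculin gene, was at 229, 182 and 209.8 CPM in WT and at 353, 309 and 279.99 CPM in dKO. The lowest dKO library was above the highest WT library, and the log2 fold change was 0.60 ± 0.11 (edgeR adjusted p = 0.00139). Tln2 (chromosome 9, 67217087 to 67559703), the gene of the talin that is most prominent in muscle and brain, was at 75.8, 83.8 and 72.0 CPM in WT and 139, 137 and 111 CPM in dKO. It rose by 0.74 ± 0.10 on the log2 scale (edgeR adjusted p = 0.000314). Tln1, the talin of most cells, was at 369, 336 and 383 CPM in WT and 391, 384 and 449.7 CPM in dKO. The lowest dKO library of Tln1 lay just above its highest WT library, and the gene did not pass (0.17 ± 0.09, edgeR adjusted p = 0.119).

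The promoters of Vcl and, below, Flnc are printed as examples, picked with the motif matches and the directions known. Both genes rose, and each has an upstream window with letters of a transcription factor motif related to the pathway. Fermt2, which also rose, holds a match too, and the windows of Lims1 and Bcar1, which rose, hold none. Tln2, which rose as well, had no window and was not searched. Flna, Actn4, Lpp and Zyx hold matches and did not rise. The window of Vcl comes first. The 250 bases before the RefSeq start (RefSeq, GRCm38.p6, plus strand, chr14:20929148-20929397) are given 5′ to 3′, with capitals marking a CArG box, the element bound by SRF, and the letters GGAATG, the core bound by TEAD factors, the DNA-binding partners of YAP and TAZ.
Vcl: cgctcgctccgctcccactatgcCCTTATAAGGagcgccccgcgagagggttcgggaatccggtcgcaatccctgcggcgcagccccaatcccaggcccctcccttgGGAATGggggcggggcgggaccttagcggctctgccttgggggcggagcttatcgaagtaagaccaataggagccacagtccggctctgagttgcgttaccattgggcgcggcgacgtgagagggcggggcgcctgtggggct

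The actin-linked layer had 1 rise, 5 falls and 5 genes that did not pass among 11. That is 54.5% called, near the 57.3% of all tested genes, of which 28.6% were higher and 28.7% lower. Flnc (chromosome 6, 29433256 to 29461883), whose product filamin C is best known from striated muscle, was at 37.6, 26.8 and 33.4 CPM in WT and at 253, 249.7 and 314 CPM in dKO. All dKO libraries were several times above all WT libraries, and the log2 fold change was 3.06 ± 0.14 (edgeR adjusted p = 5.25e-07). Of 4 smooth and striated muscle markers, Actg2 was at 0 in every library. The summed level of Des, Myh11, Cnn1 and Actg2 was 0.142 to 0.604 CPM in WT and 0.535 to 1.15 CPM in dKO. Among other striated muscle genes, named after their values were seen, Acta1 had 0, 0 and 0 counts in WT and 9, 4 and 19 in dKO. Actn3 had 0, 0 and 4 counts in WT and 9, 45 and 27 in dKO. Csrp3 had 5, 0 and 0 counts in WT and 0 in dKO, and Actn2 was at 0 in every library. The filter on low counts left Acta1, Actn3, Csrp3 and Actn2 out of the test. Flna (X chromosome, 74223461 to 74249820), the gene of the ubiquitous filamin A, fell from 1647, 1397 and 1630.1 CPM in WT to 871, 845 and 984 CPM in dKO. Its log2 fold change was -0.79 ± 0.09 (edgeR adjusted p = 8.79e-05), so the 2 filamins moved in opposite directions in the same libraries.

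RefSeq gives Flnc 2 starts, whose upstream windows overlap. The one shown, for the largest rise (RefSeq, GRCm38.p6, plus strand, chr6:29433006-29433255), holds a motif match, and the other (chr6:29432903-29433152) holds none. The capitals mark CATTCC, which is GGAATG read on the other strand.
Flnc: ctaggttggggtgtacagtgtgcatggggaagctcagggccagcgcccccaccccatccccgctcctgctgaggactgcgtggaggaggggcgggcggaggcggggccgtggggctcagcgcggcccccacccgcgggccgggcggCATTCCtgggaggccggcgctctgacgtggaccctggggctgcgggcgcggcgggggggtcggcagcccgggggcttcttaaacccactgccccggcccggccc

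Both strands of the 250 bases before each RefSeq start were searched for GGAATG, the CArG box, and TGANTCA, the letters bound by AP-1. A window was found for 22 of the 29 genes, some with several starts, and a gene was counted if any of its windows held the motif. Flnc and Lpp each have another window without GGAATG, and no match of 1 motif overlapped a match of another. GGAATG was in a window of 5 of the 22 genes, Actn4, Flna, Flnc, Lpp and Vcl, and in 14.4% of the 27025 genes with a window. These 5 genes comprise 2 that rose, 1 that fell and 2 that did not pass. A CArG box was found for Fermt2 and Vcl, both among the genes that rose, and in 1.62% of all genes. TGANTCA was found for Actn4 and Zyx, which did not pass, and in 7.82% of all genes. A match describes letters in the window and does not show binding.

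Alpha-actinins cross-link actin filaments and join them to the adhesion. Actn1 (chromosome 12, 80167547 to 80260371) was at 437, 433 and 447 CPM in WT and at 245, 248 and 253 CPM in dKO. The SD was 1.59% of the mean in WT and 1.62% in dKO, and the log2 fold change was -0.82 ± 0.06 (edgeR adjusted p = 5.5e-06). Actn4, the other non-muscle alpha-actinin, was at 459, 431 and 465 CPM in WT and 416, 421 and 411 CPM in dKO. Its ranges did not overlap, but the difference of -0.12 ± 0.06 did not pass (edgeR adjusted p = 0.137). Without WT 2 Actn4 was called lower, at -0.15 on the log2 scale (edgeR adjusted p = 0.0462).

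Csrp1 (chromosome 1, 135720061 to 135752232), the gene of a LIM protein that binds alpha-actinin and zyxin, had 83.3, 104 and 84.8 CPM in WT and 40.2, 41.8 and 34.2 CPM in dKO. It fell by 1.23 ± 0.12 on the log2 scale (edgeR adjusted p = 2.79e-05), with the groups well apart. Pdlim7, encoding enigma, a PDZ and LIM protein of actin bundles, was at 109, 90.4 and 111 CPM in WT and 69.9, 62.2 and 70.6 CPM in dKO, a log2 difference of -0.62 ± 0.10 (edgeR adjusted p = 0.000706). Its relative Pdlim5 was at 127, 139.6 and 137 CPM in WT and 138, 143 and 136 CPM in dKO, with mixed libraries and a difference that did not pass (0.05 ± 0.07, edgeR adjusted p = 0.579). Vasp, whose product elongates actin filaments at the adhesion, was at 184, 206 and 162 CPM in WT and 141, 145 and 139.8 CPM in dKO. The fall of Vasp was -0.37 ± 0.09 (edgeR adjusted p = 0.00695), and its WT libraries were more spread than its dKO libraries.

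Zyx, the gene of the LIM protein zyxin, which moves to strained actin fibres, was at 153, 218 and 149 CPM in WT and 202, 195 and 186 CPM in dKO. WT 2 exceeded every dKO library, and Zyx did not pass (0.16 ± 0.14, edgeR adjusted p = 0.344). It was called higher without WT 2, at 0.36 ± 0.06 (edgeR adjusted p = 0.00194). Lpp, a zyxin relative, was at 101, 87.2 and 104 CPM in WT and 108, 105 and 102 CPM in dKO, again with overlap and without passing (0.11 ± 0.08, edgeR adjusted p = 0.3). Nexn, encoding the muscle-enriched actin binder nexilin, was low, at 2.31, 1.34 and 2.46 CPM in WT and 1.39, 0.909 and 0.722 CPM in dKO. Its difference of -1.02 ± 0.40 lay next to the threshold (edgeR adjusted p = 0.0567) and passed in 6 of the alternatives, DESeq2 (adjusted p = 0.0468) and leaving out WT 2 (edgeR adjusted p = 0.028) or dKO 1 (edgeR adjusted p = 0.0401) among them.

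Related genes within a layer often differed in how they moved, so the balance of 10 pairs was computed in each library from counts per exon length. Fermt2 made up 22.8%, 25.3% and 24.6% of the kindlin pair in WT 1, WT 2 and WT 3 and 48.1%, 47.8% and 49.1% in the dKO libraries. The kindlins thus went from a pair led by Fermt1 to near parity, while their sum went from 33.8 ± 3.20 to 21.0 ± 1.61 RPKM. Flnc went from 2.23%, 1.88% and 2.01% of the filamin pair to 22.5%, 22.8% and 24.2%, and the sum of Flna and Flnc from 169 ± 15.4 to 125 ± 11.6 RPKM. Actn1 made up 51.3%, 52.7% and 51.6% of the alpha-actinin pair in WT and 39.5%, 39.5% and 40.5% in dKO. Flna therefore still exceeded Flnc, and Actn4 became the larger of the alpha-actinins.

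Pdlim7 went from 58.4% ± 3.67 of its pair with Pdlim5 to 47.1% ± 2.44, Parvb from 11.3% ± 2.19 of the parvins to 7.83% ± 0.459, and Tns1 from 1.77% ± 0.313 of its pair with Tns3 to 0.287% ± 0.149 (SD, n = 3). Tln2 went from 10.3% ± 1.36 to 14.5% ± 2.50 of the talins, with ranges that overlapped because dKO 3, at 11.6%, lay just below WT 2, at 11.8%. Lpp with Zyx, Tgfb1i1 with Pxn and Lims2 with Lims1 overlapped between the groups. In 6 of the 10 pairs the groups did not overlap, and the exact two-sided permutation test gave p = 0.1 for each of these, the smallest value that 3 against 3 libraries allow, or 0.167 after Benjamini-Hochberg adjustment over the 10 pairs. The same exact permutation test gave p = 0.2 for the talins, 0.7 for Lims2 with Lims1 and 1.0 for both Lpp with Zyx and Tgfb1i1 with Pxn. No pair could pass 0.05 in this design.

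**Figure D3:**
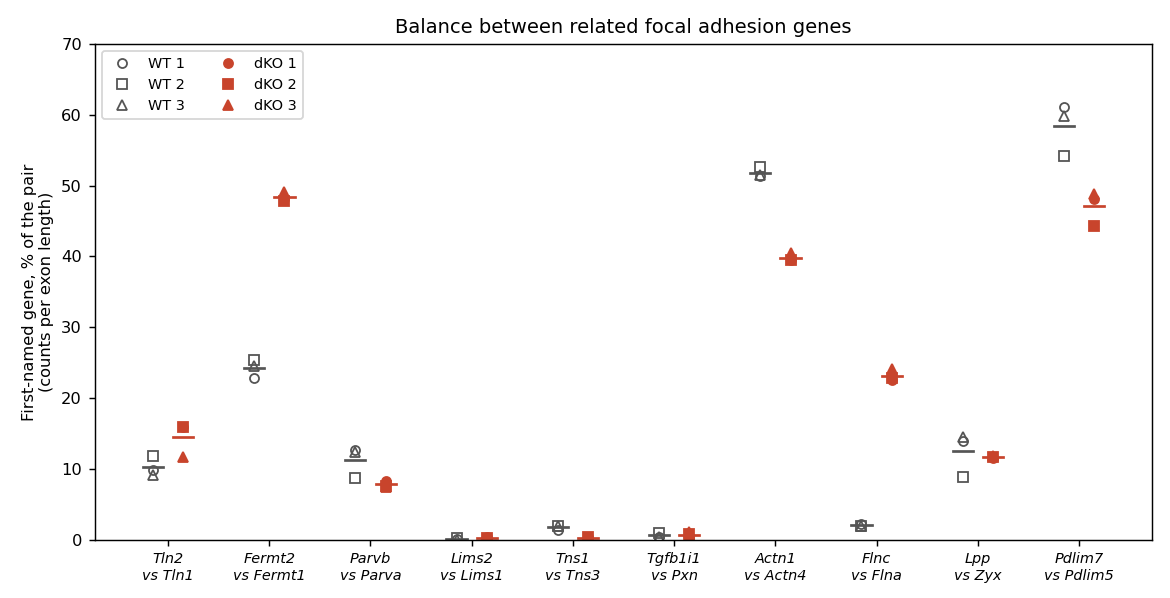
Share of the first-named gene in each of 10 pairs of related focal adhesion genes, in percent of the pair's counts per exon length, by library. Open grey symbols are WT libraries, filled red symbols dKO libraries and short lines group means. The kindlin pair (24.2% to 48.3% Fermt2) and the filamin pair (2.04% to 23.2% Flnc) show the widest gaps between the groups.

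Asked for changes beyond 1.5-fold rather than beyond 0, 9 of the 28 tested genes were called, against 28.8% of all tested genes. Flnc and Lims1 were the rises, and Fermt1, Tns1, Tns2, Src, Actn1, Flna and Csrp1 the falls. Tln2 and Parvb lay just outside (edgeR adjusted p = 0.0846 and 0.064). For 21 of the 28 genes the WT and dKO ranges were apart, against 65.6% of all tested genes. Without WT 2, 8 focal adhesion genes were higher and 14 lower, with 55.0% of all tested genes called, 28.0% higher and 27.0% lower. Without both WT 2 and dKO 3, the libraries that stood apart, 9 were higher and 15 lower, with 62.3% of all tested genes called, 31.3% higher and 31.0% lower. Tns3, Zyx and Ptk2 were the added rises and Ilk, Actn4 and Nexn the added falls. Libraries left out for standing apart in these same data narrow the spread, so the added calls are descriptions and no independent test.

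**Figure D4:**
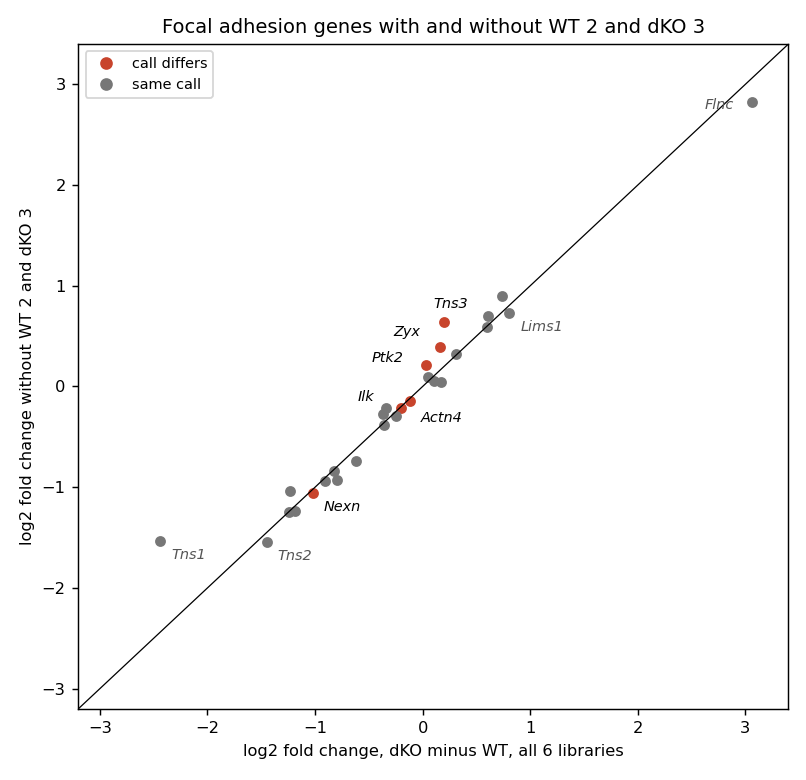
Log2 fold change, dKO minus WT, of each tested focal adhesion gene with all 6 libraries (horizontal axis) and without WT 2 and dKO 3 (vertical axis), with the line of equality. Red points mark the 6 genes whose call differed, and Tns1, at -2.44 and -1.54, lies farthest from the line.

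Other genes known from adhesions were also read from a list of 66, and among the 54 tested there were 21 rises and 17 falls, with 16 not passing. That is 70.4% called, where 57.3% of all tested genes were. The median log2 fold change of the tested genes of the list was 0.10, against -0.005 over all genes. Sorbs2, an adaptor that binds vinculin, rose from 21.7 ± 2.47 to 244 ± 12.1 CPM, Pdlim2, a PDZ and LIM gene, from 37.9 ± 9.04 to 158 ± 5.75 CPM, and Kank1, whose product binds talin at the adhesion rim, from 15.1 ± 0.954 to 62.1 ± 9.75 CPM (SD, n = 3; edgeR adjusted p = 4.3e-08, 6.55e-06 and 2.79e-06). Tns4, encoding a short tensin that lacks the actin-binding region, fell from 97.1 ± 6.73 to 0.887 ± 0.312 CPM, a log2 difference of -6.78 ± 0.21 (edgeR adjusted p = 5.47e-08). Svil, the gene of the actin binder supervillin, fell from 231 ± 20.2 to 54.8 ± 0.139 CPM, and the cortactin gene Cttn went from 712 ± 22.4 down to 176 ± 6.50 CPM (edgeR adjusted p = 1.78e-07 and 6.68e-08). With Tns1 and Tns2, Tns4 makes 3 of the 4 tensin genes lower in dKO.

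The integrin beta subunits are the receptors' side of the same contact, since talins and kindlins bind their tails. Of 8 listed genes 6 were tested, with 1 rise, 3 falls and 2 not passing, against 57.3% called over all tested genes. The median was -0.73 on the log2 scale, against -0.005 over all genes. Itgb1 and Itgb5, named after their values were seen, are the genes that did not pass. Itgb1, the most abundant of the list in both groups, had means of 1157 ± 43.5 (WT) and 1189 ± 112 CPM (dKO). Its log2 difference was 0.04 ± 0.08 (edgeR adjusted p = 0.711). Itgb5 averaged 244 ± 16.4 (WT) and 216 ± 11.4 CPM (dKO), a log2 difference of -0.18 ± 0.08 (edgeR adjusted p = 0.0729). Itgb4, the beta subunit of the hemidesmosomal laminin receptor, fell from 593 ± 23.8 to 125 ± 29.01 CPM, and Itgb2, a leukocyte beta subunit, from 5.35 ± 2.01 to 2.21 ± 0.382 CPM (edgeR adjusted p = 3.91e-06 and 0.00738). Itgb3 had 8.999 ± 1.63 CPM in WT and 0 counts in each dKO library, at least 30.4-fold lower against a floor of 12 counts per library. Itgb6, which partners alpha v, was the rise, from 0.798 ± 0.425 to 28.5 ± 2.05 CPM (edgeR adjusted p = 2.91e-06).

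Of 18 listed targets of the actin-SRF axis, 13 were tested, with 5 rises, 1 fall and 7 not passing. That is 46.2% called, where 57.3% of all tested genes were, and in a list of 13 this gap is a matter of few genes. Their median change was 0.19 on the log2 scale, against -0.005 over all genes. Tpm1 and Tpm4, tropomyosin genes, and Cald1, the caldesmon gene, had the largest rises, at 1.45 ± 0.10, 0.36 ± 0.07 and 0.70 ± 0.08 on the log2 scale (edgeR adjusted p = 4.35e-06, 0.002 and 0.000113). The fall was that of Mylk, from 3.85 ± 1.31 to 0.807 ± 0.784 CPM, named after its values were seen. Srf itself had 62.0 ± 0.960 CPM in WT and 63.7 ± 1.83 CPM in dKO, a difference that missed the threshold (edgeR adjusted p = 0.66).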

How the data were processed

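The authors deposited a table of estimated counts, whole numbers with different totals per library. Per the submitters' processing notes, HISAT2 2.2.1, StringTie 2.2.1 and the build GRCm38 (mm10) were used; for the counting step, the annotation release and strand, the sources used here give nothing. Values piled up at 4 (678 to 775 genes per library, against 273 to 367 at 5), so each read pair may weigh 4 counts; 12 counts, or 3 pairs, served as the floor.

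GENCODE M21 matched 48144 of 48820 identifiers; the others held 0.0293% of the counts. Differences were fitted across all genes with edgeR 4.0.16 in R 4.3.3 (TMM, filterByExpr, robust quasi-likelihood F-test, genotype only). SEs were approximated from the fold change and its F value. All 29 genes were named whatever their result, as were Lats1 and Lats2; of each other list, the 3 largest called rises and 3 largest called falls with at least 5 CPM in the higher group were named. The genes, layers and lists were chosen with earlier results of these data known. The alternatives were other scalings, filters and thresholds, DESeq2 1.42.0, limma 3.58.1 (voom), a replicate block and left-out libraries.

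Exons of Ilk, Lims2, Tln1, Vcl, Zyx, Lpp, Actn1 and Actn4 overlap genes on the other strand, and those of Nexn and Pdlim7 genes on their own, as do Sorbs2, Itgb4 and Tpm4 of the other lists on either strand, so without known strand some of their reads may be shared. Same-numbered libraries did not deviate together (correlations of -0.06, 0.05 and 0.08), and with counts divided by 4 the chi-square per degree of freedom between libraries of a group was 2.35 to 19.42, above sampling noise. Intervals for single counts are not given, since counts per read pair are uncertain.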

Additional observations from a re-analysis of the deposited data

How the results depend on the processing

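Each of the 28 tested genes was fitted again under 18 alternatives, and 12 kept their call and direction in all of those that could be run (genes removed by the stricter count filter have none there). Among these 12, Lpp, Pdlim5 and Tln1 passed in no setting. Parva, Parvb, Bcar1, Pxn, Tln2, Vcl, Vasp and Pdlim7 changed their call only when asked for a change beyond 1.5-fold. Tgfb1i1 and Ptk2, which did not pass, changed sign with a library left out, Tgfb1i1 from -0.25 to 0.26 without WT 2 and 0.21 without dKO 1, with a range of -0.80 to 0.26, and Ptk2 from 0.03 to -0.0184 without WT 1, -0.0153 without dKO 2 and -0.0308 without WT 3, with a range of -0.0308 to 0.135. Asked for a change beyond 1.5-fold, which calls fewer genes by construction, 2 focal adhesion genes were higher and 7 lower, 10 rather than 21 of the other adhesion genes were higher and 12 rather than 17 lower, and 2197 and 2359 of all genes were higher and lower. Under the other scalings, filters, thresholds and tools, 5 or 6 focal adhesion genes were higher and 12 or 13 lower. With each library left out in turn, 5 to 8 were higher and 12 to 14 lower, and with WT 2 and dKO 3 both left out 9 and 15. The replicate block gave 6 higher and 12 lower and changed none of these calls. The labels do not say whether the shared numbers mark a batch. The deviations of same-numbered libraries showed no sign of pairing, though 3 libraries per group make that a weak check. Of the pairs, the shift in log2 ratio of Lims2 to Lims1 ran from -0.52 to 1.52 over the left-out libraries, that of Tgfb1i1 to Pxn from -0.62 to 0.66 and that of Lpp to Zyx from -0.33 to 0.0727; these changed sign, and the cause was not tested. The other 7 pairs kept their direction. Counts limit Lims2, Tgfb1i1 and Nexn most, the members with the lowest levels.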

Other observations

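Some further genes of the list of other adhesion genes are given here as single values. They were chosen after their values were seen, and they stand for no group. Yes1, a Src-family kinase gene, rose from 65.8 ± 3.18 to 134 ± 11.9 CPM (SD, n = 3), while Fyn, another of the family, was at 15.8 ± 2.73 and 17.0 ± 3.16 CPM and did not pass. Nedd9, a relative of p130Cas, was at 46.9, 57.2 and 46.1 CPM in WT and at 138, 138 and 72.1 CPM in dKO, so its rise was much smaller in dKO 3. Crk, an adaptor that binds phosphorylated p130Cas and paxillin, rose from 222 ± 9.03 to 353 ± 32.7 CPM. Other adaptors and regulators went both ways. Among the falls were Nck2 at -0.97, Apbb1ip at -0.999, Pak1 at -0.79, Rap1b at -0.39 and Csk at -0.36 on the log2 scale. Among the rises were Ptpn12 at 1.07, Ptpn11 at 0.89, Itgb1bp1 at 0.84, Raph1 at 0.61, Nck1 at 0.60, Git1 at 0.30 and Crkl at 0.25. Ptk2b, encoding the focal adhesion kinase relative PYK2, fell from 45.4 ± 4.93 to 13.0 ± 3.66 CPM, and Dock1, the gene of an exchange factor for Rac, from 41.6 ± 5.12 to 15.2 ± 0.188 CPM.

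Among genes of LIM proteins in the same list, Ajuba, whose product binds LATS kinases, rose from 85.3 ± 5.63 to 324 ± 18.9 CPM, Trip6 from 152 ± 15.01 to 235 ± 10.6 CPM and Limd1 by 0.19 on the log2 scale. Tes, the testin gene, fell from 231 ± 20.1 to 133 ± 9.17 CPM. Fhl2, Fhl3 and Lpxn did not pass.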
